A study of Danio rerio with 2 samples.

Results

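The 11 cells of population 8, named macrophages in the study, were set against the 42 cells of populations 4 to 7, which the study calls endothelial progenitors (EPC), venous cells, arterial cells and EC2. These 53 cells were taken from 96 in all. They were chosen by the population that the authors' deposited grouping gave each cell. The study sorted GFP-positive cells from zebrafish embryos of the line Tg(-2.3 etv2:GFP)zf372, in which regulatory sequence of etv2 drives GFP, and captured them on microfluidic chips. Macrophages and endothelial cells therefore share the reporter, the sort and the strain, and carry no mutation or treatment by the labels. At 15-18 somites 2 macrophages stood beside 24 endothelial cells, and at 20 somites 9 stood beside 18. Each stage was 1 sample of pooled embryos on its own chip, and the sample titles open with different dates. Stage, chip and date therefore cannot be told apart. With 1 sample per stage, and with populations formed from the same values, no difference below has a test. A level is log2(TPM + 1), averaged over the cells of a group, where TPM is the share of transcripts scaled to 1000000 per cell. A difference is the macrophage mean minus the endothelial mean at a stage, or the average of both stages where no stage is named.

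Macrophages are phagocytes that arise in the zebrafish embryo before definitive blood stem cells, from anterior lateral plate mesoderm that also yields endothelial cells. The factor Spi1 (PU.1) drives the myeloid programme, with C/EBP and Irf factors beside it, whereas Etv2, Tal1 and Lmo2 act in the common progenitors of blood and vessels. Differentiated macrophages carry chemokine receptors, a phagocyte oxidase and many lysosomal enzymes. Endothelial cells carry VEGF receptors, junction proteins such as VE-cadherin, and SoxF factors.

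Of the 27931 genes in the table, 6246 were above 1 TPM in at least 50% of the cells of either side and were compared. A gene was counted as higher or lower when the difference was at least 2 on the log2 scale, that is 4-fold in TPM + 1, at both stages. By this rule 714 genes (11.4%) were higher in macrophages and 496 (7.94%) were lower. Macrophages had more detected genes per cell, with a median of 5918 (range 5088 to 7098), against 5356.5 (4329 to 7337) in endothelial cells. The part of this in the differences was not tested. The median difference over compared genes was 0.22, with -0.02 at 15-18 somites and 0.37 at 20 somites. The split depended on how cells were averaged. Taking the log2 of the mean TPM gave 371 higher and 674 lower genes, so that 35.5% of the counted genes were higher, against 59.0% with the mean of logs, and the median difference was then -0.40. Of the compared genes, 1844 passed the filter only through macrophages and 1021 only through endothelial cells. The filter favours a difference in such genes without forcing one, so the counts over lists below describe the cells without being support for a direction.

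Markers of other cell types were read on both sides, and their part in the differences was not tested. Macrophages had 1 to 3 of 8 erythroid markers above 1 TPM, against 0 to 5 in endothelial cells. The 8 erythroid markers summed to 4.76 to 140 TPM in macrophages (median 16.2) and 0 to 353 TPM in endothelial cells (median 13.8). Neural markers summed to 0 to 104 TPM in macrophages and 0 to 1344 TPM in endothelial cells. Of 5 listed muscle markers 3 were matched and 1 compared. The matched ones summed to 0 to 18.2 TPM in macrophages and 0 to 51.4 TPM in endothelial cells. The troponin gene TNNT2, not on that list, reached 5599 TPM in 1 early macrophage and 750 TPM in a later one. In endothelial cells TNNT2 was at most 2.21 TPM, and it is described below. Lysozyme (lyz), a granule protein of zebrafish neutrophils, was at 0 in all 53 cells, and npsn, a neutrophil protease, was above 1 TPM in 0 of 11 macrophages (a limit of 27.3%) and in 6 of 42 endothelial cells. Of the 6 listed neutrophil markers 5 were matched, mpx not among them. Macrophages had 1 to 3 of the matched ones above 1 TPM, against 0 to 2 in endothelial cells. Only mmp13a was compared. It was higher in macrophages, by 9.44 on average and without overlap, and is described below. MMP9, also on this list, was at 63.0 TPM in 1 early macrophage, at 22.7 TPM in 1 later one and at 0 in the others. Epidermal markers summed to 61.4 to 2275 TPM in macrophages and 14.6 to 7717 TPM in endothelial cells, with krt5 above 1 TPM in 0 and 1 cell of these groups. The keratin krt8 was found in all 11 macrophages and all 42 endothelial cells. Its lowest, median and highest values at 20 somites were 57.7, 480 and 2173 TPM in macrophages, against 1.08, 893 and 6728 TPM in endothelial cells. Doublets were not called.

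The 5 markers given for the macrophages were spi1b, CEBPB, cxcr3.2, mpeg1 and lcp1, written as the gene name tables write them. All 5 were above 1 TPM in 10 of 11 macrophages, and the other macrophage had 3 of them. No endothelial cell had more than 3, and 14 of the 42 had none. The factor gene spi1b stood at 2598 and 6845 TPM in the 15-18 somite macrophages, and at 1359 to 4422 TPM (median 2853) in those of 20 somites. Endothelial cells had 0 to 28.9 TPM (median 0.752) at 15-18 somites and 0 to 123 TPM (median 0.889) at 20 somites. The value of 123 TPM was in 1 EPC. That cell also had the lowest kdrl (7.83 TPM) and cdh5 (27.6 TPM) of all endothelial cells. It had 12 of 21 pan-endothelial genes above 1 TPM, the fewest, and its identity was not tested. Every macrophage was above every endothelial cell, although 19 of 42 endothelial cells had over 1 TPM (45.2%, exact Clopper-Pearson 95% interval 29.9 to 61.3%). Such intervals take cells as independent. Among the 42 cells, 2 arterial cells of 15-18 somites had nearly equal values, with kdrl at 537 and 516 TPM and etv2 at 7215 and 7792 TPM. Their pan-endothelial genes summed to 19538 and 19710 TPM. Whether these are separate cells was not tested. The differences of spi1b were 10.97 and 9.89 at the earlier and the later stage. In the erythrocyte population spi1b had a mean level of 4.63, against 11.72 in macrophages and 1.29 in endothelial cells.

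CEBPB, encoding a C/EBP factor of myeloid cells, had 128 and 1767 TPM in the early macrophages and 809 to 3445 TPM (median 1191) in the later ones, against at most 57.4 TPM in early and 24.4 TPM in late endothelial cells. The groups did not overlap, and the differences were 7.53 and 9.58. In the epithelial population CEBPB had a mean level of 6.36, against 9.63 in macrophages and 1.07 in endothelial cells. The actin-bundling protein gene lcp1 (L-plastin, ENSDARG00000088098) had 353 and 758 TPM, then 159 to 1388 TPM (median 562) in macrophages, against a median of 0 and at most 53.4 TPM in endothelial cells. A further gene model, LCP1 (ENSDARG00000023188), had 726 and 900 TPM, then 465 to 2162 TPM in macrophages. Endothelial cells had 0 to 211 TPM at 15-18 somites and 0 to 21.1 TPM at 20 somites, and 16 of 42 were above 1 TPM. How reads were shared between these models is uncertain. Both were without overlap, with average differences of 8.45 and 8.68.

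The other given markers were less even among macrophages. The chemokine receptor gene cxcr3.2, which acts in macrophage recruitment in zebrafish, had 0 and 324 TPM in the early macrophages and 6.60 to 483 TPM (median 194) in the later ones. It was at 0 in all 42 endothelial cells, which allows a share of detecting cells of up to 7.14%. The perforin-like gene mpeg1 (ENSDARG00000055290) had 0.758 and 150 TPM, then 4.27 to 1277 TPM (median 513) in macrophages, against at most 4.02 TPM in endothelial cells. The groups overlapped for both genes because of 1 early macrophage, here called macrophage 1. Macrophages were numbered by stage and then by the number that ends the cell name. Differences were 4.17 and 7.22 for cxcr3.2, and 3.67 and 7.91 for mpeg1.

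**Figure D1:**
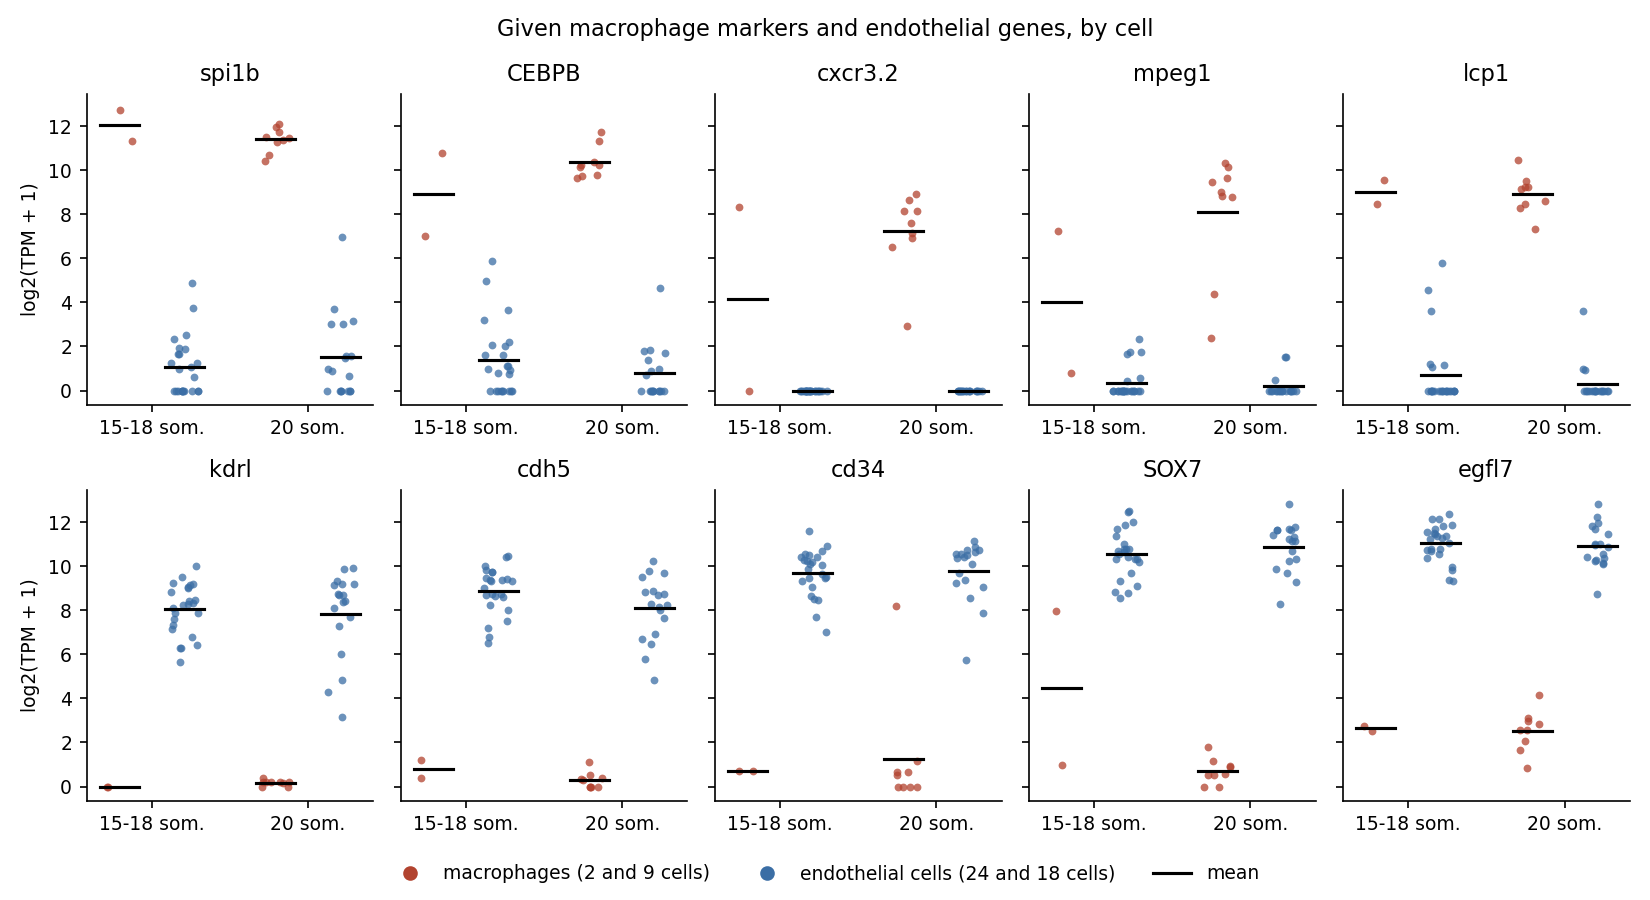
Level of 5 given macrophage markers (top) and 5 endothelial genes (bottom) in each cell, as log2(TPM + 1), by stage; points are cells and black lines are means. For spi1b, CEBPB and lcp1 every macrophage lies above every endothelial cell, and for kdrl, cdh5, SOX7 and egfl7 every macrophage lies below.

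For 30 compared genes (0.48%) all 11 macrophages lay above every endothelial cell, and for 16 (0.256%) all lay below. Among named genes the largest average difference was that of spi1b, 10.43. It was followed by 1 of the copies of MFAP4, a secreted glycoprotein gene whose zebrafish copies mark macrophages. MFAP4 (11 of 14) had 4.56 TPM in macrophage 1 and 16958 TPM in the other early macrophage. The later macrophages had 4379 to 17154 TPM (median 14716), against at most 44.1 TPM in endothelial cells. The average difference was 9.60, and only macrophage 1 lay within the endothelial range. Copies of this family are alike, so the assignment of reads among them is uncertain.

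The oxidase subunit gene cyba had 225 and 3649 TPM, then 1270 to 9284 TPM (median 1854) in macrophages, against a median of 0 at each stage and at most 424 TPM in endothelial cells. The collagenase gene mmp13a had 226 and 2038 TPM, then 958 to 3617 TPM (median 1431), against at most 88.9 TPM in endothelial cells. The phosphatase gene ptpn6 (SHP-1), a brake on leukocyte receptor signalling, had 114 and 652 TPM, then 422 to 1300 TPM (median 815), against at most 36.6 TPM. Of these, mmp13a and ptpn6 were without overlap and cyba was not. The average differences were 9.52 for cyba, 9.44 for mmp13a and 8.65 for ptpn6.

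The other genes among the 12 largest gains had average differences of 8.55 to 9.45. They were rnaset2l, an RNase T2 family gene (9.45), tspan36, a tetraspanin gene (9.34), and txnb, a thioredoxin gene (9.34). PGD, the 6-phosphogluconate dehydrogenase of the pentose phosphate pathway, had 9.05, the membrane protein gene ITM2B (ENSDARG00000041505) had 8.81, and dram1, a lysosomal membrane protein gene of autophagy, had 8.55. Of these 6 only ITM2B overlapped with endothelial cells. The mean level of txnb was 9.63 in macrophages, against 7.45 in the erythrocyte population and 0.29 in endothelial cells, and that of PGD was 10.16, against 6.76 and 1.11 in the same populations.

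Of the 20 listed myeloid transcription factors 17 were matched and 13 compared, of which 9 were higher, none lower, and the median difference was 4.39. Over all compared genes 11.4% were higher and 7.94% lower. The higher genes included spi1b, CEBPA, CEBPB, irf8, RUNX1, MYB, IKZF1 and BHLHE40. irf8, which in zebrafish directs myeloid cells to the macrophage rather than the neutrophil fate, had 24.1 and 89.7 TPM, then 21.6 to 671 TPM (median 187) in macrophages. It was above 1 TPM in 1 of 42 endothelial cells, at 9.92 TPM, and the groups did not overlap. MYB, a factor of blood progenitors, had 177 and 583 TPM, then 21.5 to 838 TPM (median 237), against at most 1.35 TPM in endothelial cells. IKZF1 (Ikaros) had 155 and 335 TPM, then 4.08 to 493 TPM (median 177), against at most 0.841 TPM. Both were likewise without overlap, and both were high in the erythrocyte population, at mean levels of 7.51 for MYB and 6.76 for IKZF1.

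RUNX1, a regulator of blood emergence, was patchy among macrophages, being above 1 TPM in 6 of 11 (54.5%, exact interval 23.4 to 83.3%) and at 0 in all endothelial cells. The paralogue spi1a was at 0.503 and 8.77 TPM in the early macrophages, but at 21.6 to 689 TPM (median 317) in the 9 later ones. Endothelial cells had medians of 2.80 and 2.82 TPM at the stages in order, and the differences were 0.09 and 5.68. The later macrophages were all above the endothelial maximum of that stage, 8.98 TPM, whereas the early ones were not. NR4A1, an immediate early nuclear receptor gene, had differences of -0.15 and 6.54, and its groups overlapped at both stages. The factor gene KLF6 (average -1.85) was not counted in either direction and was found in all 11 macrophages and in 42 of 42 endothelial cells.

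Regulators shared by blood and vessels were lower in macrophages or not counted. Of 15 listed 8 were compared, with 5 lower, beside 7.94% of all compared genes, none higher, and a median of -5.75. The gene etv2, whose regulatory sequence drives the reporter used for the sort, was above 1 TPM in all 53 cells. It had 5.94 and 1973 TPM in the early macrophages, and 22.2 to 334 TPM (median 109) in the later ones. Endothelial cells had 1727 to 14194 TPM (median 6669) at 15-18 somites and 2482 to 14311 TPM (median 5683) at 20 somites. Only macrophage 1 reached into the endothelial range, and the differences were -5.75 and -6.01. Among the endothelial populations the mean etv2 level was highest in EPC, at 12.98, followed by 12.56 in venous cells, 12.35 in arterial cells and 11.77 in EC2.

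The adaptor gene lmo2 separated the groups fully, with 0 and 0.655 TPM, then 1.26 to 25.6 TPM (median 2.23) in macrophages, against 119 to 9752 TPM and 106 to 10827 TPM in endothelial cells of the earlier and later stage. The average difference was -8.89. Its usual partner tal1, a basic helix-loop-helix factor gene of blood and vessels, was detected in 10 of 11 macrophages, at 87.9 and 320 TPM, then 0 to 543 TPM (median 138). Endothelial cells had medians of 497 and 295 TPM, the ranges overlapped, and the differences were only -1.34 and -1.68. The ETS factor gene FLI1, reported because its groups did not overlap, had 0 to 43.3 TPM over all macrophages, a mean level of 3.28, against 10.15 in endothelial cells, and an average difference of -6.87. gata2a was above 1 TPM in 1 macrophage and 37 endothelial cells, and ERG in 1 and 31.

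**Figure D2:**
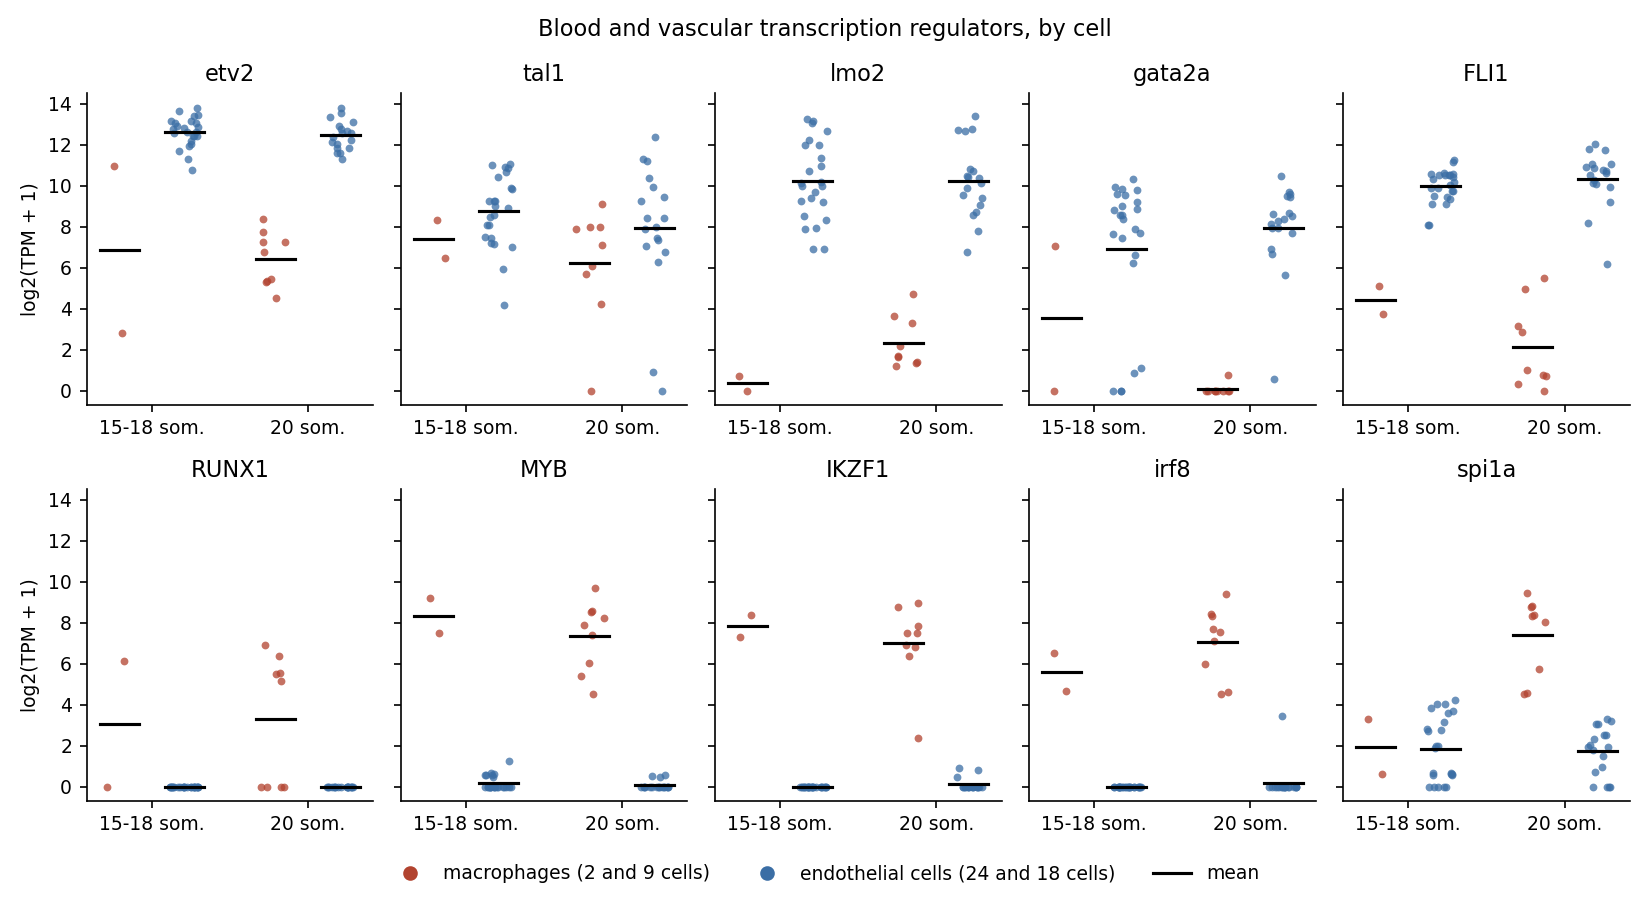
Level of 10 transcription regulators in each cell, as log2(TPM + 1), by stage; points are cells and black lines are means. lmo2 and FLI1 separate the groups downwards, MYB, IKZF1 and irf8 separate them upwards, tal1 overlaps widely, and spi1a is raised in the 9 macrophages of 20 somites.

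Few of the listed receptor genes could be compared, because some had no match by name and others did not pass the filter. Of 22 listed cytokine, chemokine and sensing receptors 13 were matched and 6 compared, with 5 higher, beside 11.4% of all compared genes. csf3r, the granulocyte colony-stimulating factor receptor gene, was above 1 TPM in 9 of 11 macrophages and 0 of 42 endothelial cells, with 60.0 and 347 TPM at 15-18 somites and 0 to 177 TPM (median 54.1) at 20 somites. The proton-sensing receptor gene gpr65 and the lysophosphatidic acid receptor gene lpar5a were each found in 10 of 11 macrophages and in 0 of 42 endothelial cells. Their medians at 20 somites were 77.8 TPM for gpr65 and 187 TPM for lpar5a. The adhesion receptor gene adgrg1 was in 8 of 11 macrophages and 3 of 42 endothelial cells. ptprc, encoding the leukocyte antigen CD45, was in 8 of 11 and 0 of 42, with differences of 1.60 and 4.88, and so was not counted. The receptor gene csf1rb, of the CSF1 receptor pair that macrophages use, was above 1 TPM in 3 of 11 macrophages and 2 of 42 endothelial cells. The other gene of the pair, csf1ra, had no match by name and was not analysed.

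In leukocyte signalling 10 of 24 listed genes were compared, and 7 were higher, beside 11.4% of all compared genes, and none lower. The higher genes are named next. These were ptpn6, samsn1a, lcp2a, SYK, plcg2, blnk and CARD9, which encode adaptors and enzymes downstream of immune receptors. Of these, lcp2a, plcg2 and CARD9 were above 1 TPM in only 1 early macrophage. The adaptor gene samsn1a had 326 and 538 TPM, then 0 to 1233 TPM (median 413) in macrophages, against a median of 0 and at most 86.4 TPM in endothelial cells. The kinase gene SYK was higher in the early macrophages, at 92.3 and 109 TPM, than in the later ones, at 0 to 87.7 TPM (median 6.59). Its differences of 6.66 and 2.29 both counted, and 2 endothelial cells exceeded 1 TPM. The Src family kinase gene FGR was not counted. It was above 1 TPM in 10 of 11 macrophages and in all 42 endothelial cells, with differences of 0.21 and -4.24.

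Genes for phagocytosis and scavenging did not move as 1 block. Of 20 listed 6 were compared, with 2 higher and 1 lower, beside 11.4% and 7.94% of all compared genes. The integrin gene itgb2 (CD18) had 3.88 and 141 TPM, then 1.87 to 473 TPM (median 76.9) in macrophages, against medians of 2.70 and 3.02 TPM in endothelial cells, and an average difference of 3.31. ANXA1 was also higher, with 2.45. The scavenger receptor gene stab2, which marks venous and sinusoidal endothelium, was lower, with -5.49 at each stage, and was above 1 TPM in 1 macrophage and 36 endothelial cells. havcr1, a phosphatidylserine receptor gene of the TIM family, was at 0 in both early macrophages but above 1 TPM in 7 of the 9 later ones, up to 730 TPM. It was found in 1 endothelial cell, and its difference at 20 somites was 5.59.

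Of the 24 listed genes for leukocyte actin and motility 15 were compared, with a median of 3.77. Of these 10 were higher, beside 11.4% of all compared genes, and none lower. The genes lcp1, coro1a, arhgdig, rac2, hcls1, wasa and myo1f had average differences between 3.96 and 8.45. coro1a, a coronin gene, had 115 and 374 TPM, then 0 to 1377 TPM (median 569), against at most 17.9 TPM in endothelial cells. The GTPase gene rac2 was in all 11 macrophages, at 609 and 734 TPM, then 125 to 1244 TPM (median 487), but also in 29 of 42 endothelial cells, up to 824 TPM. The other higher genes, pfn1, COTL1 and ARPC1B, were also above 1 TPM in 42, 36 and 20 of the 42 endothelial cells and had average differences of 2.47, 3.77 and 3.67. The 5 compared genes that were not counted, CFL1, ARPC2, ACTR2, actr3 and tmsb4x, had -0.39, 0.27, -0.34, 1.05 and 1.32.

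All 6 genes of the phagocyte NADPH oxidase, the enzyme of the respiratory burst, were compared, and 5 were higher, beside 11.4% of all compared genes. The complex summed to 1479 to 10571 TPM in macrophages (median 3807), against 2.11 to 945 TPM in endothelial cells (median 56.4). The cytosolic subunit gene ncf1 had 107 and 491 TPM, then 137 to 848 TPM (median 489), against at most 7.33 TPM, without overlap. The catalytic subunit gene cybb had 3.12 TPM in macrophage 1 and 653 TPM in the other early macrophage. The later ones had 169 to 473 TPM (median 251), against medians of 8.29 and 8.81 TPM in endothelial cells. rac2 and cyba were also among those that were higher. Each macrophage had 5 or 6 of the 6 genes above 1 TPM, against 1 to 5 in each endothelial cell.

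Lysosomal genes were split. Of 30 listed 20 were compared, 9 were higher, beside 11.4% of all compared genes, none lower, and the median was 2.61. The largest differences were those of asah1b (7.63), an acid ceramidase gene, and ctssb.2 (7.36), a cathepsin S gene. ctssb.2 had 76.2 and 215 TPM, then 96.6 to 646 TPM (median 248), against at most 1.20 TPM in endothelial cells. CTSB, PSAP and CD63 were higher on a broad endothelial base, with CD63 at 1070 and 2813 TPM, then 908 to 3664 TPM (median 3269), against medians of 440 and 549 TPM in endothelial cells. The cathepsin L gene ctsla was in all 53 cells with an average difference of -0.40, and LAMP2 had -2.27. CTSK was higher by 2 only at 20 somites, by 4.42.

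Fewer genes could be read in the remaining groups of macrophage functions, where the counts stand beside 11.4% higher over all compared genes. Of the glycolysis and pentose phosphate genes 8 of 21 were compared and 4 were higher, GPI, GAPDHS, pgam1a and PGD. In iron and haem handling 4 of 10 were compared and 2 were higher, the transporter gene slc11a2 and the haem oxygenase gene HMOX1, which was at 40.7 and 1772 TPM, then 0 to 754 TPM (median 205), against medians of 0 in endothelial cells. Of the lipid genes 6 of 16 were compared and 2 were higher, ABCA1 and LTA4H, while apoeb was at -2.76 and -1.98. In antigen presentation and the interferon response 4 of 17 were compared and none counted, with IRF7 at 0.00 and 5.17.

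Among complement and secreted effectors 3 of 15 were compared and 2 were higher, beside 11.4% of all compared genes. The lysozyme gene lygl1 had 112 and 3398 TPM, then 36.3 to 2696 TPM (median 808), against at most 23.4 TPM in endothelial cells, without overlap, and mmp13a was the other that was higher. The C1q genes c1qb and c1qc and the cytokine gene tnfa were above 1 TPM in none of the 53 cells, and c1qa was in 1 macrophage and 2 endothelial cells. In macrophages this allows a share of up to 27.3% for each gene at 0.

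**Figure D3:**
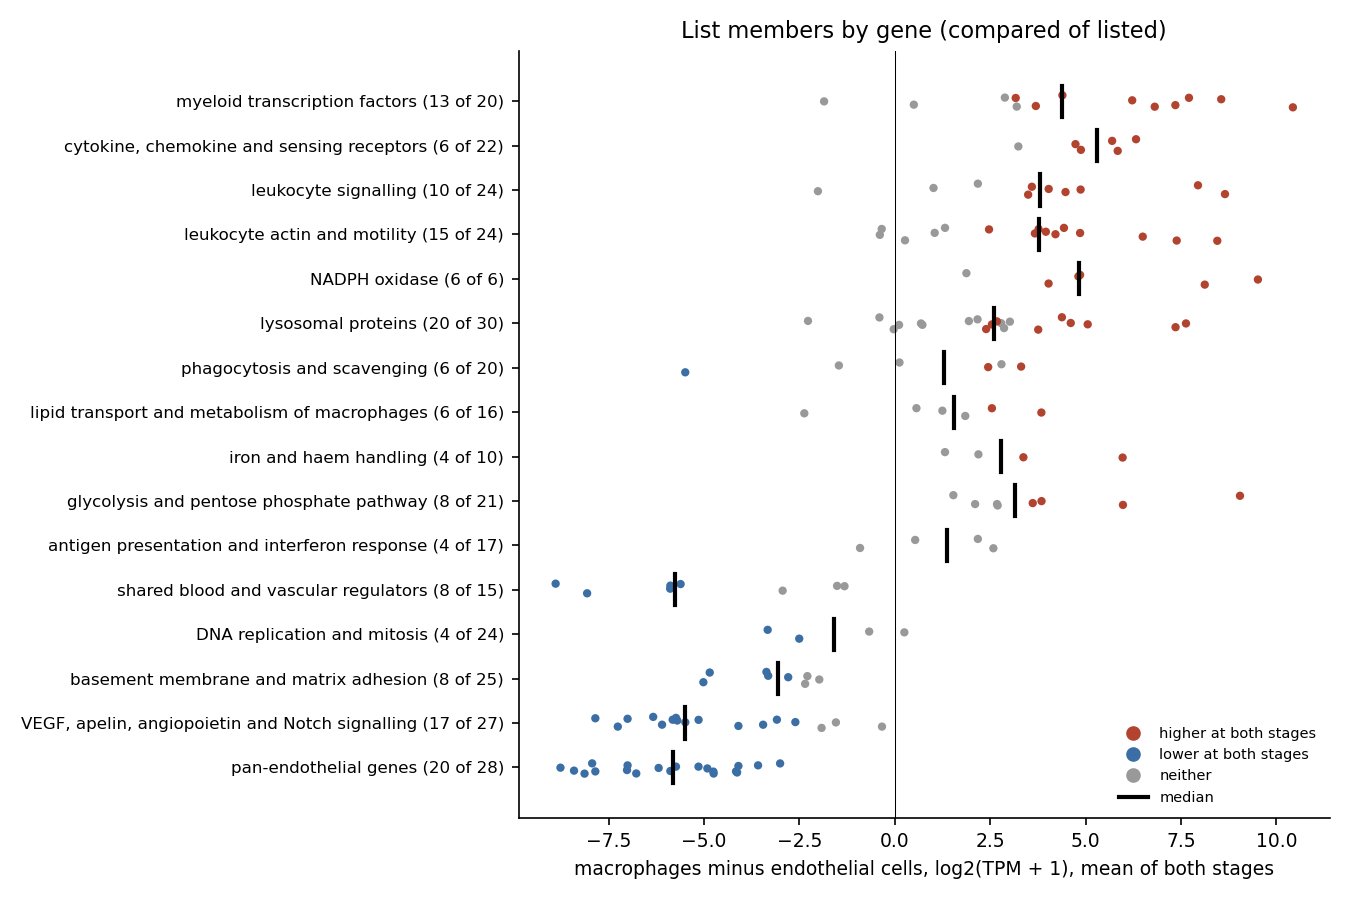
Average difference of each compared list gene, macrophages minus endothelial cells in log2(TPM + 1); red points are higher and blue points lower by at least 2 at both stages, grey points are neither, and black bars are list medians. The vascular lists, with medians between -5.81 and -3.05, lie to the left, and the NADPH oxidase (4.83) and receptor (5.29) lists lie to the right.

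Of the 28 listed pan-endothelial genes 21 were matched, 20 compared and all 20 were lower, with a median of -5.81. Among all compared genes 7.94% were lower. The VEGF receptor gene kdrl had 0 TPM in both early macrophages and at most 0.323 TPM in the later ones, against 49.9 to 1019 TPM (median 304) and 7.83 to 954 TPM (median 375) in endothelial cells. The VE-cadherin gene cdh5 was at most 1.32 TPM in macrophages, against at least 27.6 TPM in endothelial cells. Neither overlapped, and their differences were -8.04 and -7.65 for kdrl, and -8.07 and -7.79 for cdh5. A few were still detected in macrophages. egfl7, a secreted vascular factor gene, was above 1 TPM in 10 of 11 macrophages at 0.772 to 16.8 TPM, against 432 to 7282 TPM in endothelial cells. DUSP5, a phosphatase gene of ERK signalling, was in all 11 macrophages at 9.91 to 1647 TPM, against 531 to 12010 TPM.

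The largest fall among named genes was that of ID1, an inhibitor of basic helix-loop-helix factors. It had 0 and 2.41 TPM, then 0 to 99.7 TPM (median 1.21) in macrophages, against medians of 2348 and 2653 TPM in endothelial cells, and differences of -9.71 and -9.59. The groups overlapped because 1 early endothelial cell was at 0. cd34 was at most 0.642 TPM in the early macrophages and 0 to 295 TPM (median 0.424) in the later ones, against medians of 990 and 1342 TPM, and 1 macrophage at 295 TPM lay within the endothelial range. SERPINH1 (ENSDARG00000019949), a collagen chaperone gene, egfl7, the keratin gene krt18a.1 and SOX7 followed, with -8.61, -8.40, -8.16 and -8.13, all without overlap. The Wnt modulator gene tmem88a (-8.06) and the actin regulator gene WASF3 (-7.89) completed the named genes with si:ch211-156j16.1 (-7.80), and these overlapped.

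Signalling genes of the vessel were lower in 14 of 17 compared, with a median of -5.49, and 21 of 27 listed were matched. The share of all compared genes that were lower was 7.94%. flt1, a VEGF receptor gene, was at 0 in all 11 macrophages and above 1 TPM in 35 of 42 endothelial cells, with differences of -6.33 and -4.64. flt4, dll4, aplnra and aplnrb had average differences of -5.14, -6.33, -7.26 and -5.82. The mean level of flt4 was 0.17 in macrophages, against 7.76 in venous cells, where it was highest among the endothelial populations. That of dll4 was 0.05 in macrophages, against 8.72 in arterial cells, where it was highest. notch2, HEY1 and jag1b were not counted. Of the matrix genes 8 of 25 were compared and 5 were lower, lama4, HSPG2, SPARC, ITGA5 and hapln3, by -2.79 to -5.01 on average. SPARC was still found in 10 of 11 macrophages, at a mean level of 3.65, against 7.01 in endothelial cells.

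Cell cycle genes varied within both groups, and the study's clustering used a filter against them. Of 24 listed 4 were compared, and PCNA and plk1 were lower, beside 7.94% of all compared genes. PCNA, the replication clamp gene, was above 1 TPM in 7 of 11 macrophages, at 4.49 and 37.3 TPM, then 0 to 1267 TPM (median 129). It was in 38 of 42 endothelial cells, with medians of 249 and 281 TPM. Of the 18 matched genes, macrophages had between 1 and 17 above 1 TPM (median 5), against 2 to 14 (median 6) in endothelial cells. The macrophage with 17 was macrophage 10, also the one with the most detected genes, 7098, and 4 macrophages had only 1. The part of the number of detected genes in this was not tested.

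The stages were then set side by side. Of the genes higher by at least 2 at 20 somites, 51.2% of 1396 were so at 15-18 somites, which was 55.6% of the 1285 at that stage. For lower genes it was 71.4% of 695 and 43.7% of 1134. Across the 6246 genes the differences at both stages had a Pearson r of 0.66, a description over genes that are not independent, and 63 genes went in opposite directions by at least 2. havcr1, IRF7, spi1a and NR4A1 had the larger difference at the later stage, and of these havcr1 and IRF7 were at 0 in both early macrophages. SYK (6.66 and 2.29), csf3r (7.12 and 4.56) and adgrg1 (6.38 and 3.37) had the larger difference at the earlier stage. The earlier stage rests on 2 macrophages, so these contrasts are between few cells and are confounded with the chip and the date. Some genes counted as higher were above 1 TPM in only 1 of these 2 macrophages. Among others they were RUNX1, BHLHE40, gpr65, ANXA1, slc11a2, ARPC1B, myo1f, lcp2a, plcg2 and CARD9. The endothelial side also differed in make-up. It held 8 EPC, 4 venous, 10 arterial and 2 EC2 cells at 15-18 somites. At 20 somites it held 6, 4, 3 and 5 of these, and the part of this in the contrasts was not tested.

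**Figure D4:**
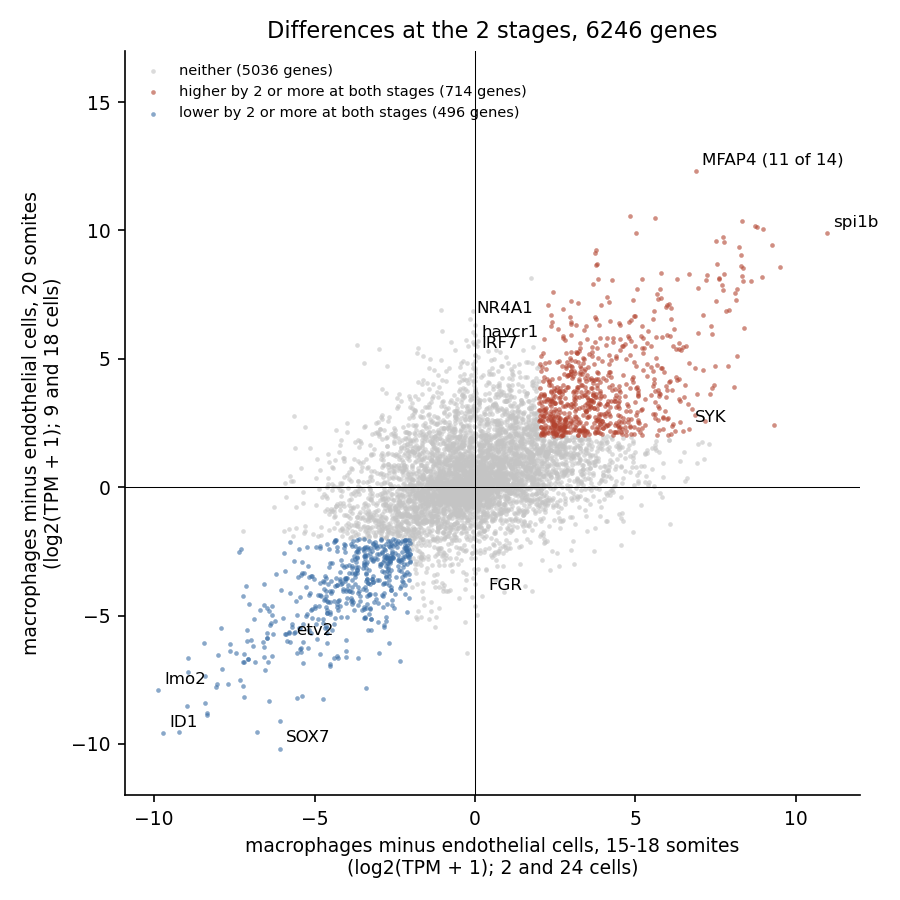
Each compared gene by its difference, macrophages minus endothelial cells in log2(TPM + 1), at 15-18 somites (horizontal) and 20 somites (vertical). The 714 higher genes (red) and 496 lower genes (blue) pass 2 at both stages; NR4A1, IRF7 and havcr1 lie near 0 at the earlier stage and above 5 at the later one.

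The 2 early macrophages were unlike each other. Macrophage 1 had the highest spi1b of all 11, at 6845 TPM, and lcp1 at 353 TPM, but cxcr3.2 and gpr65 at 0, mpeg1 at 0.758 and MFAP4 (11 of 14) at 4.56 TPM. It also had transcripts that were low in every other macrophage. The SoxF genes SOX7 and sox18 were at 250 and 73.1 TPM in it, against at most 2.48 and 0.673 TPM in the other 10. The junction gene ESAM was at 97.4 against at most 3.21 TPM, gata2a at 131 against at most 0.685 TPM, krt18a.1 at 91.5 against at most 3.13 TPM, and etv2 at 1973 against at most 334 TPM. Its kdrl was at 0 and its cdh5 at 1.32 TPM, and 8 of 21 pan-endothelial genes were above 1 TPM, against 3 to 7 in the other macrophages and 12 to 21 in endothelial cells. Over the 6246 genes its r with the endothelial mean level was 0.49, against 0.38 to 0.43 for the other macrophages. Its median r with the other macrophages, 0.47, was not the lowest. That value was 0.48 for macrophage 2, 0.46 for macrophage 3 and at most 0.55 among all 11.

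Leaving out macrophage 1, with the filter run again, gave 691 higher and 548 lower of 6716 compared genes, against 6246 compared with all 11 macrophages. Without it 73 genes had no overlap in either direction, against 46 with all 11 macrophages. For a given gene, leaving out any cell can only keep or widen such a separation. Over the runs that each left out 1 macrophage the count was 46 to 73, highest without macrophage 1. The cause of this rise was not tested. Without macrophage 1 the earlier stage rests on 1 macrophage. Leaving out any other macrophage gave 691 to 775 higher genes and 451 to 517 lower genes. Without macrophage 1 the average difference of cyba was 10.52 and that of ID1 was -9.21. Whether macrophage 1 is a doublet or another cell was not tested.

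Among the higher genes the spread over macrophages was widest for ctss2.1, TNNT2, s100a10b, ALDH8A1, BBLN, zgc:136870, LECT2 (ENSDARG00000033227) and dnase1l4.1, with standard deviations of 4.27 to 5.01 log2 units over 11 cells. ctss2.1, a cathepsin S family gene, was above 1 TPM in 7 of 11, reaching 3438 TPM, and in 5 of 42 endothelial cells, at most 33.8 TPM. ALDH8A1, an aldehyde dehydrogenase gene, was above 1 TPM in 7 macrophages, up to 1057 TPM, and in 0 of 42 endothelial cells. TNNT2, a heart muscle troponin T gene in mammals, was above 1 TPM in 6 macrophages and was 5599 TPM in macrophage 1. Without that cell its average difference was 1.95, against 5.06 with it. Like TNNT2, the genes ctss2.1, s100a10b, ALDH8A1, BBLN, zgc:136870 and dnase1l4.1 were at 0 in 1 early macrophage and not in the other. Over runs that each left out 1 macrophage, the average difference was 0.34 to 5.75 for dnase1l4.1 and 1.17 to 7.03 for s100a10b. In these runs it was at least 2.11 for ctss2.1, ALDH8A1, BBLN, zgc:136870 and LECT2 (ENSDARG00000033227). By contrast spi1b had a standard deviation of 0.64 and pfn1, a profilin gene, 0.51. The mean level of dnase1l4.1 was 5.59 in macrophages, against 10.28 in the erythrocyte and 9.65 in the epithelial population. In 1 endothelial cell dnase1l4.1 reached 6503 TPM. That of s100a10b was 6.24 in macrophages and 8.22 in the epithelial population. The other most variable genes were lower in both populations than in macrophages. Carry-over of transcripts between cells was not tested.

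**Figure D5:**
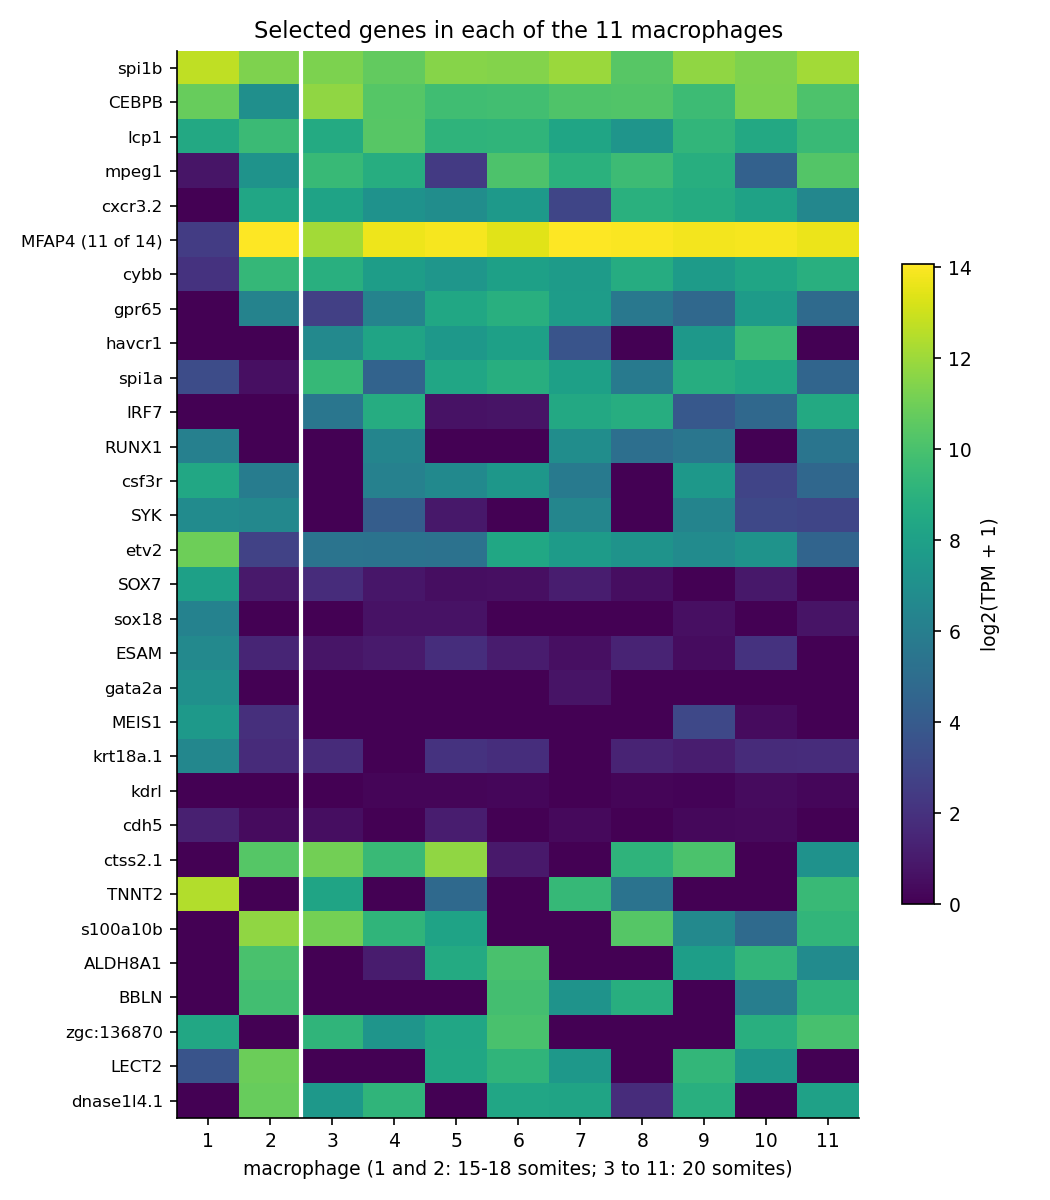
Level of 31 selected genes in each of the 11 macrophages, as log2(TPM + 1) by colour; columns 1 and 2 are from 15-18 somites and 3 to 11 from 20 somites. spi1b and lcp1 are on in every column, whereas SOX7, sox18, ESAM, gata2a and krt18a.1 are bright in column 1 alone and the 8 most variable genes at the bottom are on in some columns only.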

How the data were processed

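Single GFP-positive cells from 2 samples, 48 cells each, were processed by the authors. Reads were quantified with Kallisto in AltAnalyze against the Ensembl 72 annotation of Zv9, and the deposited table holds TPM per gene and cell, 1000000 in sum per cell. TPM keeps no read depth, so a value of 0 does not show absence and the precision of a value is unknown. Populations came from the authors' deposited cell grouping. The deposited log2 table and the marker table's population means were not used.

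Genes above 1 TPM in at least 50% of macrophages or of endothelial cells were compared on log2(TPM + 1), cells averaged within stage and the 2 stages weighted equally. Fold changes on this scale understate low genes. A minimum difference of 2 at both stages made the call. Named genes were the 5 given markers, the 12 symbol genes with the largest average difference each way, members of 23 gene lists by role, and the 8 called genes with the largest standard deviation among macrophages. Members and lists were chosen with earlier results of these data known. Of 366 list symbols 262 were matched, through the deposited marker table, a gene name table and RefSeq synonyms. Exact Clopper-Pearson 95% intervals and the limit of 3 cells for a count of 0 cover the counting of cells only. They take the cells as independent. Alternatives changed the pseudocount, filter, averaging, comparator, stage and cells. Values of some list members are not reported here. Promoter sequences were not analysed here. Python 3.11.15, numpy 2.4.6, pandas 2.3.3 and scipy 1.17.1 were used.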

Additional observations from a re-analysis of the deposited data

Results flagged for a closer look

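The differences, macrophages minus endothelial cells, took opposite signs at the 2 stages for 2 list medians and for 5 list genes that passed 1 in size at both stages. None of these contrasts between stages was tested, and the earlier stage holds 2 macrophages. The median of the phagocytosis and scavenging list was -0.29 at 15-18 somites and 1.79 at 20 somites, over 6 genes, and that of the epidermal markers was 0.04 and -0.52, over 3 genes. The calcium-binding chaperone gene CALR was at -3.55 and 1.73, with 10 of 11 macrophages and 35 of 42 endothelial cells above 1 TPM. notch2, a Notch receptor gene, was at -1.91 and 1.24, being near 0 in both early macrophages and above 1 TPM in 7 of the later ones. The cholesterol transporter gene NPC1 was at -1.22 and 1.44, and the carboxypeptidase gene CPVL at -1.08 and 2.53. mki67, a gene of dividing cells, was at 1.04 and -2.38.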

How the results depend on the processing

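With 2 macrophages at the earlier stage, TPM values without depth and no replicate sample, the counts describe these cells only. Of the counts under other settings than leaving out 1 macrophage, 19 moved by over 1.5 times and 21 did not. Genes higher in macrophages numbered 1252 with cells pooled over stages and 1126 with a pseudocount of 0.1. They numbered 1079 with the median over cells and 371 with the log2 of the mean TPM. At 20 somites alone they were 1472 of 6554 genes, the filter and the call then using that stage only. The genes higher and lower were 219 and 215 with a pseudocount of 10, 461 and 280 with the filter at 75% of a side, 1337 and 928 at a minimum difference of 1, and 343 and 275 at a minimum of 3. Settings added after seeing the data gave 2210 higher and 1150 lower of 8741 genes at 15-18 somites alone, filtered again on that stage. Among the 3381 genes above 1 TPM in at least 50% of each side they gave 180 and 99. Centring each stage on its median gave 596 and 568. Genes without overlap, also added then, numbered 109 at 20 somites alone and 73 against EPC alone. Leaving out 1 macrophage at a time, with the filter run again, gave 691 to 775 higher genes, 451 to 548 lower genes and 46 to 73 without overlap. For a given gene, fewer cells can only keep or widen a separation, so counts without overlap can fall only through the filter. No cell had fewer than 3000 detected genes, so that setting removed none. Its counts could not change, and they are among the 21.

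The median difference over all compared genes (0.22) was -0.40 with the log2 of the mean TPM, and signs also turned for some small lists and 1 named gene. The phagocytosis median (1.29) was -0.018 without a filter, -0.67 with the filter at 75% of a side and -0.00079 with the log2 of the mean TPM. The erythroid median (0.98) was -0.012 without a filter, -0.48 with the filter at 75% of a side or at 5 TPM, and -0.95 against EPC. The epidermal median (-0.30) was 1.63 against EPC and 0.011 against populations 5 to 7. The muscle median (0.38) was -0.23 with the median over cells and -0.30 to 1.07 with 1 macrophage left out, and dnase1l4.1 (3.05) was -0.27 with the log2 of the mean TPM. No paired analysis was possible because each stage is 1 sample. The cause of these shifts was not tested.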

Other observations

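Some gene families outside the lists were described by all their symbols after the values had been seen, with no test. Over all compared genes 11.4% were higher and 7.94% lower. Of the subunit genes of the vacuolar proton pump, which acidifies lysosomes, 16 of 26 were compared, 10 were higher in macrophages and none lower. ATP6V1G1 had 5.84 at 15-18 somites and 5.83 at 20 somites, and ATP6V0B had 2.75 and 5.82. Of 21 peroxiredoxin, glutathione peroxidase and thioredoxin genes 12 were compared and 7 were higher, led by txnb and by gpx1a (6.29 and 8.10), while TXN was at -0.36 and 0.75. Of 13 MFAP4 copies 8 were compared and 6 were higher, from MFAP4 (7 of 14) with 4.12 and 7.41 up to MFAP4 (11 of 14) with 6.88 and 12.32.

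Genes for ribosome assembly were described in the same way. Of 46 genes 39 were compared, 21 were higher and none lower, with a median of 2.78, against 0.22 over all compared genes. NIFK had 5.83 and 4.65, rsl1d1 had 5.90 and 4.48, and npm1a, a nucleolar chaperone gene, had 3.26 and 5.43. Genes for the proteins of the cytosolic ribosome itself did not differ by this rule, with 0 of 62 counted in either direction and a median of 0.21. Of 44 compared mitochondrial ribosomal protein genes 11 were higher, beside the 11.4% over all compared genes. On the lower side, where the share over all compared genes was 7.94%, 2 of 3 compared Id genes, 3 of 4 Frizzled receptor genes and 4 of 5 high mobility group B genes were lower, with HMGB3 (ENSDARG00000006408) at 3.03 and 1.95 as the exception. Macrophages had more detected genes per cell than endothelial cells, and the part of that in these counts was not tested.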
